A study of Danio rerio with 24 samples.

Results

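The 8 genes pou5f3, nanog, sox19a, sox19b, eomesa, foxd3, myca and mycb encode transcription factors of early zebrafish development, and their RNA was followed in sorted primordial germ cells (PGCs), the cells of the embryo from which eggs and sperm descend. They were taken by gene name from the 4 expression tables. Each name matched 1 gene identifier, which gave 8 of the 32520 genes listed. The study asked how BMP signalling through Smad1 and Smad9 bears on PGC proliferation, and 20 RNA libraries were made, 10 at 75% epiboly in the gastrula and 10 a day after fertilization (1 dpf). At each stage there were 3 libraries from wild-type controls, 3 from germline-specific smad1 knockouts (smad1-cKO, here cKO), 2 from embryos injected with a control morpholino (control-MO) and 2 from embryos injected with a smad1 morpholino (smad1-KD, here KD). Both morpholino groups are labelled as wild type in genotype. All embryos were kept in Holtfreter's water and carried a transgene that marks PGCs with a fluorescent protein. The sources used here do not give the background strain or the number of embryos or cells behind each RNA library. The cKO acts in the germline, whereas a morpholino is an antisense oligomer given to the whole embryo.

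The zebrafish egg carries Pou5f3, Nanog and the SoxB1 factor Sox19b, which bind closed chromatin and open it so that the embryonic genome can be switched on. Sox19a is a close SoxB1 relative that is made mainly after activation and continues in the nervous system. Eomesa is a maternal T-box factor of the Nodal pathway, Foxd3 is a forkhead factor of the blastula that later specifies neural crest, and Myca and Mycb are the zebrafish counterparts of MYC, which drives growth and cell division. PGCs are set aside by germ plasm and begin transcription later than their somatic neighbours.

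The expression unit was TPM, the length-scaled share of a transcript among all transcripts of its library. Read numbers cannot be recovered from TPM, so how deeply each library was sequenced was not known. At 75% epiboly 13371 to 18508 genes were above 0 in a library. At 1 dpf the count was 21330 to 24547, without overlap between the stages. The 12 germ cell marker genes were all above 0 in every library. That does not test the germ cell label. All 9 blood and all 14 neural markers were also above 0 in every control-MO and KD library at 1 dpf. The summed TPM of the germ cell markers was 4278 to 33611 in the control and cKO libraries and 797 to 5248 in the libraries of the morpholino experiment. At 75% epiboly, replicate 3 of the control and of the cKO stood apart with germ cell sums of 4278 and 4990 TPM, against 11389 to 33611 in the other 4. At 1 dpf, control replicate 1 and cKO replicates 1 and 2 had skin marker sums of 3622 to 6076 TPM, against 270.1 to 399.7 in the other 3. The blood marker sum at 1 dpf was 6959 to 67869 TPM in the morpholino experiment and 0.957 to 115 TPM in the knockout experiment. The targeted gene smad1 was at 11.7 to 16.4 TPM in the cKO and 134 to 140.0 in controls at 1 dpf, at 1.11 to 5.09 and 9.68 to 17.9 at 75% epiboly, and lower without overlap in the KD at both stages (70.3 to 170.3 against 193 to 201 at 1 dpf, 2.598 to 4.23 against 9.80 to 9.96 at 75% epiboly). A morpholino can act on translation, so its RNA level need not show the knockdown. Separate clutches are not named in the labels, and the p-values given here therefore rest on a spread between libraries that may be technical.

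Between 75% epiboly and 1 dpf in control PGCs, most of the genome activation factors fell and both Myc genes rose. Of the 8 genes, 5 fell (pou5f3, nanog, sox19b, eomesa and foxd3), 2 rose (myca and mycb) and 1 (sox19a) did not pass the limma test at an adjusted p under 0.05. Over all 16567 genes tested, 55.6% were called, 43.9% as higher at 1 dpf and 11.7% as lower. The control groups of the stages did not overlap for 7 of the 8 genes, nor for 61.6% of all genes. The median log2 difference of the 8 genes was -1.82, against 0.96 for all genes tested, so a typical gene was listed higher at 1 dpf. That general shift was 0.61 with median-ratio scaling and 0.02 after quantile normalization. Quantile normalization gives every library the same distribution and median-ratio scaling centres genes detected in all libraries, so neither tests that shift. Fewer genes were above 0 in every control library at 75% epiboly than in any at 1 dpf. The part of that difference in the shift and in the calls was not tested. The stages were deposited in separate tables, and a difference between stages and a difference between tables cannot be told apart. In sorted samples, fewer cells of a type and less RNA per cell cannot be told apart either.

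**Figure D1:**
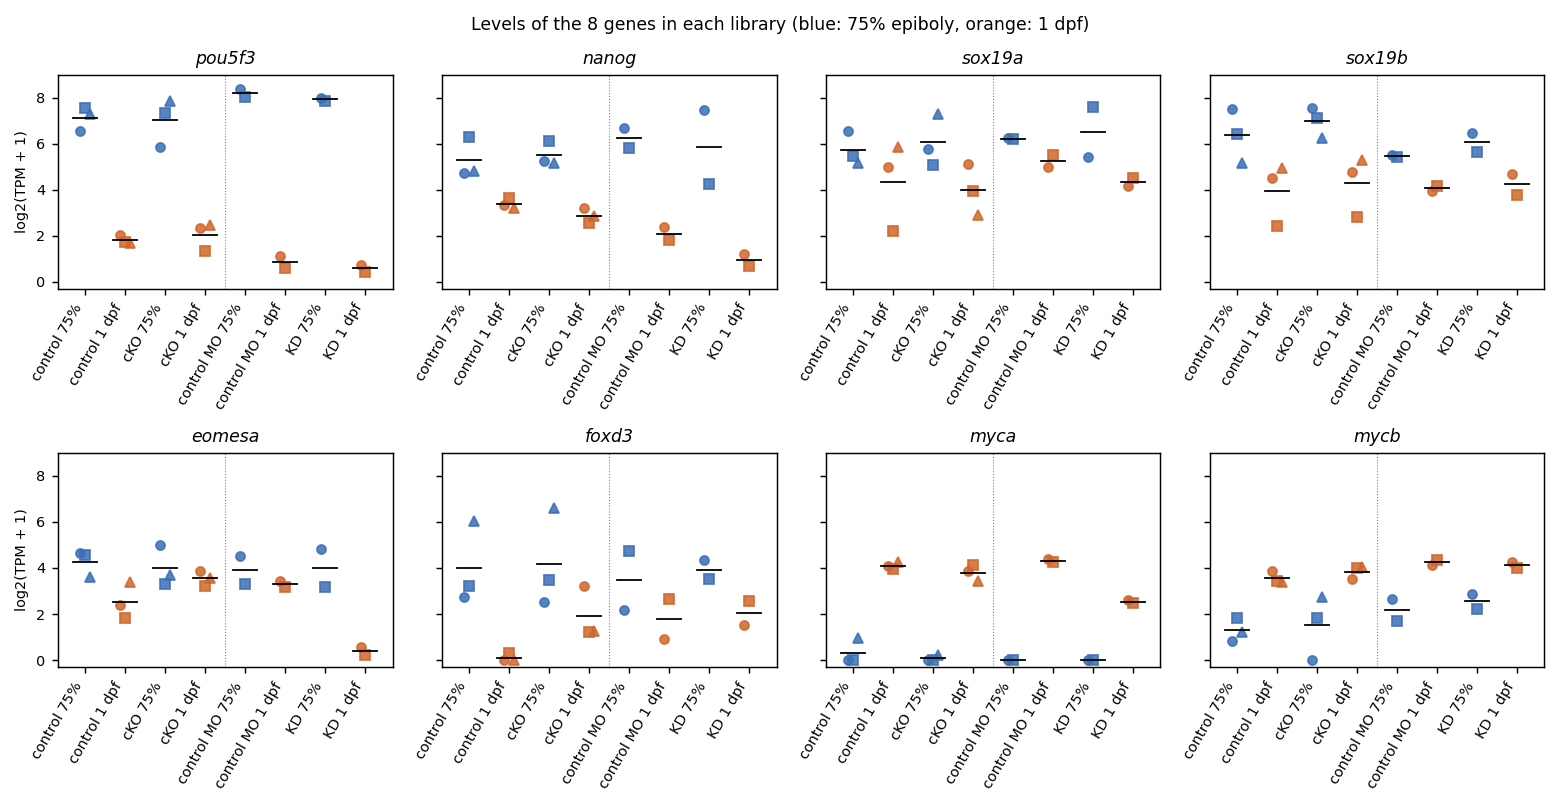
TPM of the 8 genes in each of the 20 libraries (vertical axis, log2(TPM + 1); horizontal axis, the 8 groups; circle, square and triangle are replicates 1, 2 and 3; the bar is the group mean). The points of pou5f3 and nanog at 75% epiboly lie above all those at 1 dpf, those of myca and mycb lie below, and the points of the other 4 genes overlap between stages.

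The partners at the head of genome activation are pou5f3 (ENSDARG00000044774) and nanog (ENSDARG00000075113). In the 3 control libraries pou5f3 was at 93.5, 184 and 157 TPM at 75% epiboly and at 3.10, 2.30 and 2.23 TPM at 1 dpf. Every early library was far above every late one. The mean went from 145 ± 46.5 to 2.54 ± 0.480 TPM (SD, n = 3 each), a 57.0-fold lower level at 1 dpf, and the log2(TPM + 1) difference was -5.32 (SE 0.50, limma adjusted p = 3.66e-06). Only 0.241% of the genes tested had a lower value than that. Nanog is a homeobox factor that acts with Pou5f3 on the first zygotic genes. It was at 25.5, 78.1 and 27.03 TPM at 75% epiboly and at 9.09, 11.5 and 8.13 TPM at 1 dpf in control PGCs. Replicate 2 was the highest of the early libraries, and the stages did not overlap. The mean of nanog went from 43.5 ± 29.9 to 9.57 ± 1.74 TPM, with a log2 difference of -1.89 (SE 0.44, limma adjusted p = 0.00296). By mean TPM, pou5f3 thus moved from rank 788 to rank 13739 of all genes and nanog from rank 2474 to rank 8373. At 75% epiboly germ cell markers summed to 797 to 1600 TPM in the morpholino experiment and to 4278 to 33611 TPM in the knockout experiment. Pou5f3 was there at 232 to 332 and at 56.4 to 230.3 TPM, and nanog at 17.8 to 174 and at 25.5 to 78.1 TPM. The part of cells other than germ cells in the pou5f3 and nanog values was not tested.

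The order of these partners changed with stage. The ratio of nanog to pou5f3 TPM in controls was 0.273, 0.424 and 0.172 at 75% epiboly and 2.94, 4.99 and 3.65 at 1 dpf. Over all 20 libraries it was 0.0766 to 0.683 (median 0.292) at 75% epiboly and 1.39 to 4.99 (median 3.03) at 1 dpf. In each of the 10 early libraries pou5f3 was therefore the higher of the pair, and in each of the 10 late libraries nanog was. Both genes are much lower at 1 dpf, so the late ratio rests on small values of pou5f3.

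The SoxB1 pair behaved less uniformly. Sox19b (ENSDARG00000040266), the maternal member, was at 181, 84.0 and 34.3 TPM at 75% epiboly and at 21.9, 4.32 and 29.5 TPM at 1 dpf in controls. The lowest early library, replicate 3, was only just above the highest late one, and the stages did not overlap. Its log2 difference was -2.40 (SE 0.78, limma adjusted p = 0.0193). That call was lost without replicate 1 at 75% epiboly (adjusted p = 0.0838) or replicate 2 at 1 dpf (adjusted p = 0.0990). Sox19a (ENSDARG00000010770), the zygotic member, was at 92.3, 42.8 and 34.4 TPM at 75% epiboly and at 30.4, 3.60 and 56.0 TPM at 1 dpf. The late libraries were spread widely, and 1 of them, replicate 3, was above 2 of the early ones. The log2 difference of sox19a was -1.38 (SE 0.86, 95% interval -3.25 to 0.49, limma adjusted p = 0.193), and it moved to -0.31 without replicate 2 at 1 dpf. The 14 neural markers, which include the SoxB1 genes sox2 and sox3, summed to 621, 255 and 374 TPM in the same late libraries and to 83.1 to 99.3 TPM in the early ones. All 14 were above 0 in at least 1 late control library, and 3 were at 0 in every early one. The part of neural cells in the sox19a and sox19b values was not tested. The sox19a to sox19b ratio overlapped between stages, at 0.237 to 3.90 in the 10 early and 0.172 to 2.65 in the 10 late libraries.

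Eomesa and foxd3 fell from lower starting levels. Eomesa (ENSDARG00000006640) was at 24.3, 22.8 and 11.2 TPM at 75% epiboly and at 4.30, 2.53 and 9.53 TPM at 1 dpf in controls. Replicate 3 was the lowest of the early and the highest of the late libraries, which nearly closed the gap between the stages. The log2 difference was -1.74 (SE 0.53, limma adjusted p = 0.0132), and without replicate 2 at 1 dpf the adjusted p was 0.0656. Foxd3 (ENSDARG00000021032) was at 5.69, 8.38 and 64.2 TPM at 75% epiboly and was listed at 0, 0.243 and 0 TPM at 1 dpf. The early libraries were all above the late ones, and replicate 3 was far above the other early ones. The log2 difference of foxd3 was -3.89 (SE 1.01, limma adjusted p = 0.0056). It was -2.88 without replicate 3 at 75% epiboly. That library is the control with the low germ cell sum, and the cKO library of the same number, also low in germ cell markers, held the highest foxd3 value of all, 95.0 TPM. The 8 mesoderm and organizer markers summed to 503, 1087 and 981 TPM in the early controls and to 18.5, 31.9 and 30.5 TPM in the late ones. The 8 neural crest markers summed to 6.02, 20.2 and 28.1 TPM early, with 4 of them at 0 in every early control, and to 46.1 to 65.9 TPM late. The part of mesoderm or neural crest cells in the eomesa and foxd3 values was not tested.

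The Myc genes went the other way. Myca (ENSDARG00000045695) was listed at 0, 0 and 0.970 TPM at 75% epiboly and was at 15.8, 14.4 and 17.96 TPM at 1 dpf in controls. All late libraries were above all early ones, and the late values lay close together. The log2(TPM + 1) difference of myca was 3.76 (SE 0.39, limma adjusted p = 7.18e-06), and 95.0% of the genes tested had a lower value. Mycb (ENSDARG00000007241) was at 0.799, 2.58 and 1.35 TPM at 75% epiboly and at 13.6, 9.93 and 9.35 TPM at 1 dpf. The groups were again separate, with a mean 6.96 times as high at 1 dpf. Its log2 difference was 2.26 (SE 0.58, limma adjusted p = 0.00537), and 78.6% of the genes tested had a lower value. After quantile normalization the mycb difference was 1.29 with an adjusted p of 0.0730. With a pseudocount of 0.1 the adjusted p was 0.0608, so the call for mycb depended on these choices. In controls 14932 to 16245 genes were above 0 early and 21330 to 22212 late. The part of this difference in the myca and mycb values was not tested. Without the 3 late libraries with high skin markers, the adjusted p of eomesa was 0.0894, that of foxd3 0.0504 and that of mycb 0.0625. With those libraries left out 4 of the 8 genes were called, beside 42.2% of 15851 genes.

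The relatives of Myc included a gene that moved against myca and mycb. Mych, a further member of the family, was at 279, 341 and 175 TPM at 75% epiboly and at 13.0, 17.4 and 16.8 TPM at 1 dpf in controls. Its log2 difference was -3.95 (SE 0.36, limma adjusted p = 3.22e-06). In the cKO mych fell by 4.02 on the log2 scale (limma adjusted p = 2.95e-06). In control-MO PGCs the difference was -2.31 (adjusted p = 0.0106), and in the KD it was -1.56 (adjusted p = 0.0602), past the threshold in the former only. Max, the shared dimer partner of the Myc proteins, fell by 0.70 (SE 0.24, limma adjusted p = 0.0236) and was at 224 to 541 TPM in the 6 control libraries. Of the Mxd and Mnt proteins, which compete with Myc for Max, mxd4 rose by 3.66 (adjusted p = 0.000182), mxd3 rose by 1.94 (adjusted p = 0.000196) and mntb fell by 2.42 (adjusted p = 0.000109). Over the whole list of 14 Myc relatives and partners, 13 were tested, of which 2 rose, 4 fell and 7 were not called. The list median was -0.17. Over all genes tested, 43.9% rose and 11.7% fell.

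**Figure D2:**
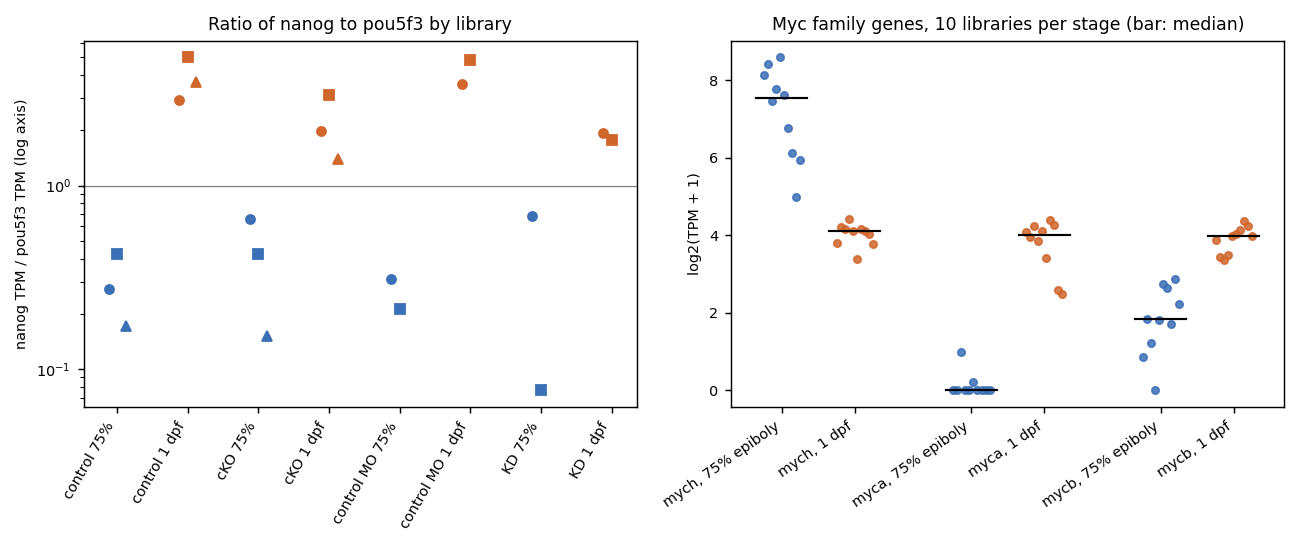
Left, the ratio of nanog to pou5f3 TPM in each library (log axis; circle, square and triangle are replicates 1, 2 and 3; the line marks a ratio of 1). Right, log2(TPM + 1) of mych, myca and mycb in the 10 libraries of each stage, with the median as a bar. Every early ratio is below 1 and every late ratio above it, and mych is high where myca and mycb are low.

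The other 3 groups gave the same stage comparison with their own libraries. In the cKO, 5 of the 8 genes were called, against 56.1% of all genes (10.3% as lower), with pou5f3 at -4.96, nanog at -2.65, sox19b at -2.68, myca at 3.72 and mycb at 2.32. Uncalled in the cKO were sox19a at -2.06 (limma adjusted p = 0.0578), eomesa at -0.45 (0.488) and foxd3 at -2.29 (0.0700). Eomesa was at 31.3, 9.01 and 11.9 TPM early and at 13.8, 8.22 and 11.01 TPM late in the cKO, and these groups overlapped. The sox19b call in the cKO was lost without replicate 2 at 1 dpf (-1.94, limma adjusted p = 0.0579). In control-MO PGCs 4 were called, against 26.4% of all genes (3.58% as lower), with pou5f3 at -7.35, nanog at -4.17, myca at 4.32 and mycb at 2.07. In the KD 6 were called, against 17.7% of all genes (4.28% as lower), with pou5f3 at -7.34, nanog at -4.89, eomesa at -3.61, sox19a at -2.18, sox19b at -1.82 and myca at 2.54. Myca was listed at 0 in all 4 early libraries of the morpholino experiment, so its differences there depend on the pseudocount and are no fold change. With 2 libraries per group these calls are less stable. Leaving out 1 library lowered the number of called members in both groups. The number of all genes called fell as well in control-MO and moved either way in the KD. In the KD the sox19a difference was -1.11 (adjusted p = 0.148) without replicate 2 at 75% epiboly, and its adjusted p was 0.0847 after quantile normalization and 0.0930 with median-ratio scaling. The sox19b call in the KD was lost without replicate 1 at 75% epiboly (0.118) or replicate 2 at 1 dpf (0.124), and that of eomesa without replicate 1 (0.0536) or 2 (0.0524) at 1 dpf.

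Pou5f3, nanog and myca passed the test in all 4 groups. The nanog call was lost in 3 of the 4 fits that left out 1 control-MO library (adjusted p up to 0.0787) and without either late KD library (0.0578 and 0.0613). Mycb passed in 3 of the 4 groups, and in the KD it was 1.56 higher on the log2 scale (limma adjusted p = 0.0908). The mycb call in control-MO was lost whichever of its 4 libraries was left out (adjusted p 0.05002 to 0.198). In the cKO it was lost after quantile normalization (adjusted p = 0.0758) and without the late libraries with high skin markers (0.0890). Sox19b passed in 3 of the 4, eomesa in 2, and sox19a and foxd3 in 1 each. Over the 10 libraries of each stage, pou5f3 was at 56.4 to 332 TPM early and at 0.352 to 4.52 late, and nanog at 17.8 to 174 early and at 0.627 to 11.5 late. Myca was at 0 to 0.970 early and at 4.57 to 20.01 late, and mycb at 0 to 6.31 early and at 9.35 to 19.5 late. These 4 genes did not overlap between stages, as was true of 15.5% of the 16816 genes compared, 13.0% higher and 2.53% lower at 1 dpf. The other 4 genes, sox19a, sox19b, eomesa and foxd3, overlapped between stages.

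**Figure D3:**
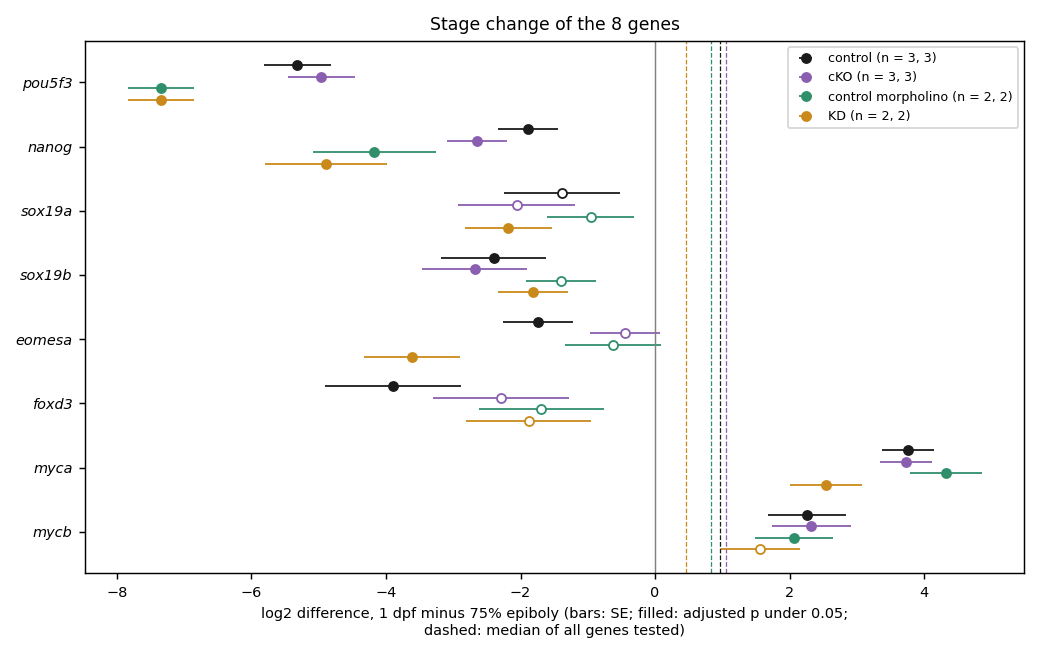
Log2(TPM + 1) difference between 1 dpf and 75% epiboly for the 8 genes in each of the 4 groups (bars are SE; filled points passed an adjusted p of 0.05; the dashed line is the median of all genes tested). Pou5f3 and nanog are to the left and myca to the right with filled points in every group.

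Whether the stage change itself differed between groups was tested directly, and no member passed. Between the cKO and controls, 0 of 16567 genes were called (0.00%; 628 at an unadjusted p under 0.05). Between the KD and control-MO 0 of 16311 were called (0.00%; 695 unadjusted), and the largest member difference was eomesa at -2.98 (SE 1.01, limma adjusted p = 0.978). Between control-MO and the controls of the knockout experiment 673 of 16816 genes were called, 2.17% as higher and 1.83% as lower. There pou5f3 differed by -2.03 (SE 0.72, adjusted p = 0.118) and nanog by -2.28 (SE 0.97, adjusted p = 0.196), so neither passed. The morpholino and knockout experiments also differ in table and in germ cell marker sum, and these cannot be told apart from the morpholino injection.

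Loss of smad1 in the cKO left no member called at either stage. At 75% epiboly 7 members were tested, myca being too low, and 0 of 13006 genes were called (0.00%; 236 at an unadjusted p under 0.05), so all adjusted p-values were 0.9995. The groups overlapped for all 7, as they did for all but 5.21% of genes. Sox19b was at 184, 139 and 75.5 TPM in the cKO against 181, 84.0 and 34.3 TPM in controls. It was the higher in each of the 3 same-numbered pairs, by 0.019, 0.72 and 1.12 on the log2 scale. How many of all genes agree in this way was not counted. The log2 difference of sox19b was 0.62 (SE 0.54, 95% interval -0.54 to 1.77, unpaired). With those libraries paired, its SE was 0.28 (limma adjusted p = 0.999). Pou5f3 was at 56.4, 160.0 and 230.3 TPM in the cKO at 75% epiboly, which spans its control range, and its difference was -0.12 (95% interval -1.16 to 0.91). Nanog was at 37.2, 68.0 and 34.9 TPM there, with a difference of 0.23 (95% interval -0.86 to 1.33). The remaining differences were 0.34 for sox19a, -0.27 for eomesa, 0.19 for foxd3 and 0.21 for mycb, each smaller than its SE. Their 95% intervals were -0.86 to 1.53, -1.51 to 0.97, -1.91 to 2.30 and -1.56 to 1.99 in that order. Changes within those ranges are not excluded.

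At 1 dpf the cKO comparison called 1 of 17573 genes (0.00569%) and none of the 8 members (1122 genes, and foxd3 and eomesa among the members, had an unadjusted p under 0.05). Foxd3 was at 8.27, 1.34 and 1.41 TPM in the cKO against 0, 0.243 and 0 in controls. All 3 cKO libraries were above all controls, with replicate 1 much the highest, and the log2 difference was 1.80 (SE 0.60, limma adjusted p = 0.602). Eomesa was at 13.8, 8.22 and 11.01 TPM in the cKO against 4.30, 2.53 and 9.53 TPM. It was the higher in each same-numbered pair but the groups overlapped, and the difference was 1.02 (SE 0.43, limma adjusted p = 0.761). Nanog was at 8.08, 4.78 and 6.29 TPM in the cKO against 9.09, 11.5 and 8.13 TPM. It was lower without overlap, by a log2 difference of -0.53 (SE 0.31, limma adjusted p = 0.868). Among all genes, 11.4% did not overlap, against 2 of the 8 members. The other members overlapped between groups, with differences of 0.23 for pou5f3, -0.34 for sox19a, 0.33 for sox19b, -0.29 for myca and 0.28 for mycb. Sox19b was the higher in each same-numbered pair, by 0.27, 0.39 and 0.34, with an SE of 0.75 unpaired and 0.23 paired (limma adjusted p = 0.710 paired). Leaving out 1 library moved its difference between -0.44 and 1.08. The 3 pairs also agreed in direction for nanog, eomesa and foxd3, and how many of all genes agree was not counted. Neural crest markers summed to 85.7, 44.7 and 25.1 TPM in these cKO libraries and to 56.0, 46.1 and 65.9 TPM in controls, and skin markers to 4856, 6076 and 270.1 TPM against 3622, 399.7 and 300.4 TPM. Yolk layer, liver and endoderm markers summed to 109.5, 148 and 6.21 TPM in the cKO and to 7.35, 11.7 and 19.8 TPM in controls. The median log2 difference of the 7 tested was 2.53, against -0.015 for all genes. Blood markers summed to 115, 44.5 and 5.41 TPM against 1.65, 15.0 and 0.957 TPM, and muscle markers to 491, 78.8 and 67.0 TPM against 64.5, 29.9 and 58.4 TPM. Markers of cell types other than germ cells were thus found in these libraries, and the part of such cells in the foxd3 and eomesa values was not tested. The values of this comparison are unpaired where pairing is not named. With same-numbered libraries paired, 14 genes and no member were called. The paired SE was 0.57 for foxd3 (limma adjusted p = 0.418), 0.36 for eomesa (0.476) and 0.32 for nanog (0.673).

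**Figure D4:**
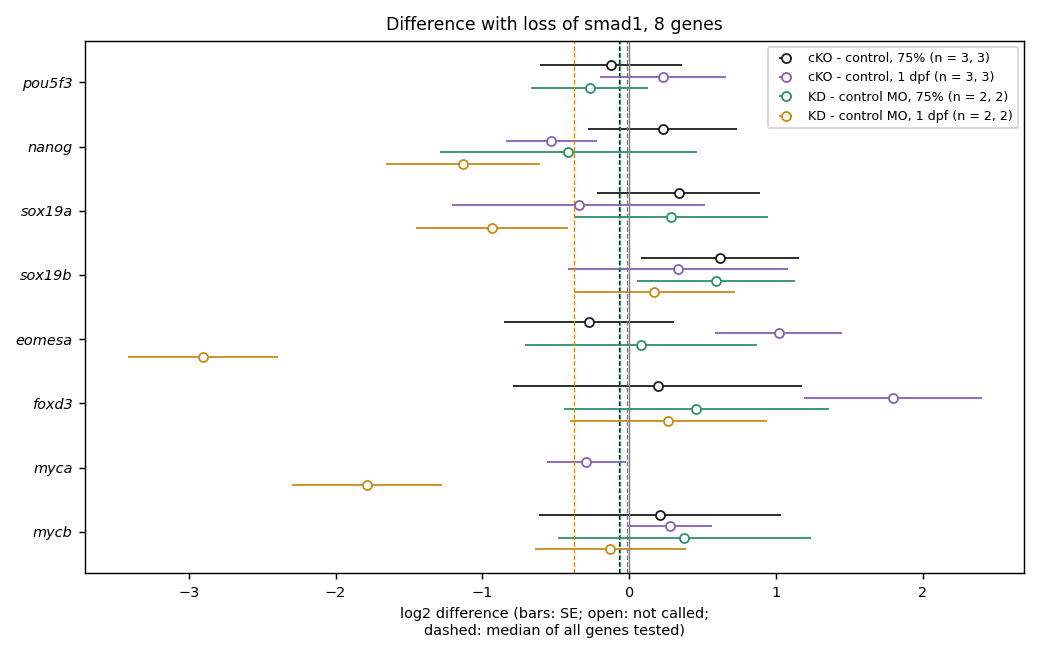
Log2(TPM + 1) difference of the 8 genes in the cKO against control and in the KD against control morpholino at each stage (bars are SE; open points did not pass an adjusted p of 0.05; the dashed line is the median of all genes tested). All points are open in these unpaired fits, and the lowest is eomesa in the KD at 1 dpf, at -2.90.

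The smad1 knockdown left no member called in the fit without pairing by number. At 75% epiboly 7 members were tested, myca being listed at 0 in all 4 libraries, and 0 of 12968 genes were called (0.00%; 164 unadjusted). Pou5f3 was at 254.6 and 232 TPM in the KD against 331.6 and 259.6 TPM in control-MO. The KD values were just below both control values, with a log2 difference of -0.27 (SE 0.40). Sox19b was at 88.2 and 48.5 TPM in the KD against 43.9 and 42.3 TPM, higher without overlap by a log2 difference of 0.59 (SE 0.54). These 2 of 7 members stand beside 22.3% of all genes without overlap. Nanog was at 174 and 17.8 TPM in the KD, a larger SD than in the other 7 groups, and its difference was -0.41 (SE 0.87). Sox19a was likewise spread, at 42.4 and 189 TPM against 75.1 and 72.0 TPM, with a difference of 0.29 (SE 0.66). The other differences were 0.08 for eomesa, 0.46 for foxd3 and 0.37 for mycb.

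At 1 dpf 7 members were tested, pou5f3 being too low, and 0 of 17141 genes were called without pairing (0.00%; 1697, or 9.90%, at an unadjusted p under 0.05, eomesa and myca among them). Eomesa was at 0.461 and 0.167 TPM in the KD against 9.72 and 7.93 TPM in control-MO. Both KD values were below every other library of the series. The mean was 28.1-fold lower, a fold that rests on a KD mean of 0.314 TPM at unknown depth. The log2 difference was -2.90 (SE 0.51, limma adjusted p = 0.0765). It was -2.66 with median-ratio scaling and -2.45 after quantile normalization, and 0.403% of genes had a lower value. Myca was at 5.06 and 4.57 TPM in the KD against 20.01 and 18.04 TPM. The libraries were close within each group and well apart between them, and the difference was -1.78 (SE 0.51, limma adjusted p = 0.226). Pairing the libraries by number called 866 genes (5.05%), among them eomesa (limma adjusted p = 3.4e-05) and myca (0.0477). Those 2 pairs share only a number and are fewer than the 3 required here for pairing. Their deviations from the group means correlated at 0.601, a value that 2 libraries per group make the same for both pairs. Nanog was at 1.30 and 0.627 TPM against 4.13 and 2.51 TPM, lower without overlap, at -1.13 (SE 0.53, adjusted p = 0.521). Sox19a was at 16.7 and 21.7 TPM against 31.1 and 44.7 TPM, also lower without overlap, at -0.93 (SE 0.52, adjusted p = 0.624). These 4 of 7 members, all lower in the KD, stand beside 40.3% of all genes without overlap. Of all genes, 34.7% were without overlap and lower in the KD, and the median of all genes was -0.38. Blood markers summed to 32420 and 67869 TPM in the KD against 18520 and 6959 TPM, muscle markers to 209 and 46.1 against 934 and 791 TPM, and germ cell markers to 4811 and 1050.2 against 5248 and 1533 TPM. Neural markers summed to 278 and 305 TPM in the KD against 578 and 755 TPM in control-MO. Mesoderm and organizer markers summed to 8.68 and 7.09 TPM against 29.6 and 33.5 TPM. The part of these cells in the members' values was not tested. Mycb and sox19b stayed close, at -0.13 (95% interval -1.27 to 1.01) and 0.17 (95% interval -1.05 to 1.39), and mycb changed sign under median-ratio scaling (0.31) and quantile normalization (0.24).

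The wider network was read in lists of partners and targets, again from 75% epiboly to 1 dpf in controls. Of all genes tested in that comparison, 43.9% were called as higher at 1 dpf and 11.7% as lower. Of 22 first zygotic wave genes, which include early targets of Pou5f3, Nanog and SoxB1, 21 were tested, of which 13 fell and 1 rose, with a median of -2.23 against 0.96 for all genes. The T-box factor tbx16 was at 328, 712 and 535 TPM early and at 2.202, 3.94 and 2.49 TPM late, and fell by 7.04 on the log2 scale (SE 0.41, limma adjusted p = 1.18e-07). The Wnt target sp5l fell by 6.61 and the ventral homeobox gene vox by 5.13. The 1 that rose was isg15, an interferon-stimulated gene, at 7.77, 25.3 and 81.2 TPM early and 137, 602 and 577 TPM late (log2 difference 3.77, adjusted p = 0.00884). Of 19 Nodal and mesendoderm partners of eomesa, 16 were tested, of which 6 fell and 3 rose. The gene foxh1, a maternal partner of Smad2, was at 74.6, 68.2 and 44.4 TPM early and at 1.68, 2.99 and 1.85 TPM late and fell by 4.31 (adjusted p = 1.21e-06), and the notochord gene noto fell by 4.21. These lists share genes, tbx16 among them. Tbx16 and noto are also mesoderm and organizer markers, whose sum in controls was 503 to 1087 TPM early and 18.5 to 31.9 TPM late. The part of mesoderm cells in the values of these lists was not tested.

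**Figure D5:**
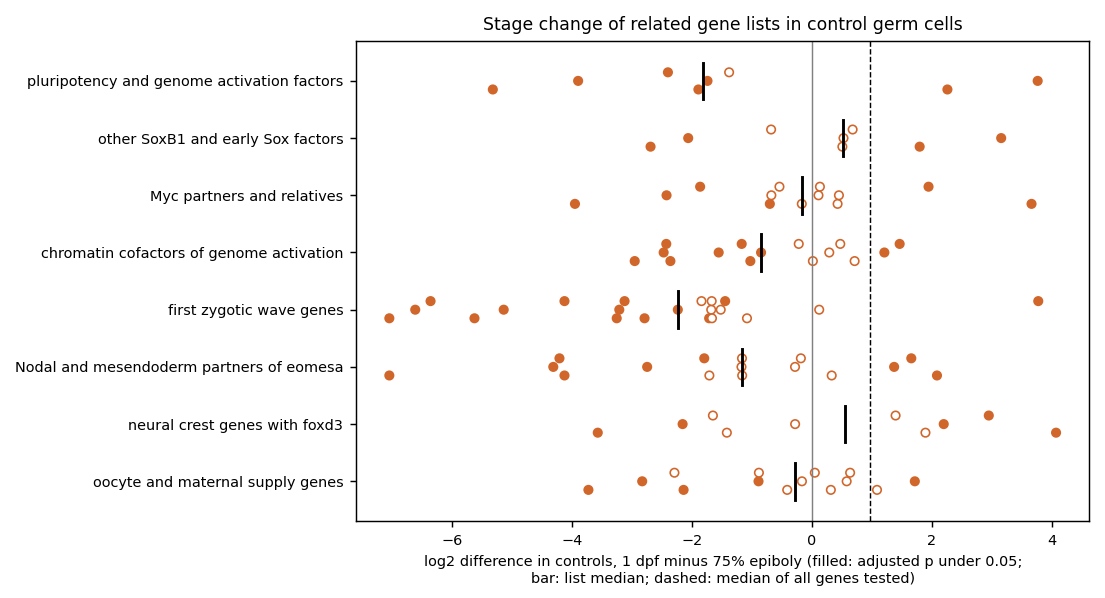
Log2(TPM + 1) difference between 1 dpf and 75% epiboly in controls for every tested gene of each list (filled points passed an adjusted p of 0.05; the bar is the list median; the dashed line is the median of all genes, 0.96). The first zygotic wave genes have the lowest list median, -2.23.

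Among chromatin cofactors of genome activation, 15 of 16 were tested, of which 8 fell and 2 rose, with a median of -0.85. The bromodomain genes brd2a (-2.95) and brd3a (-2.47) fell (limma adjusted p = 0.00013 and 1.3e-05) and the remodeller subunit gene smarca4a fell by 2.43 (1.3e-05). The histone variant genes split, h2az2a rising by 1.21 and h2az2b falling by 1.17. Of the other SoxB1 and early Sox genes, 8 of 10 were tested, of which 2 rose and 2 fell. The SoxC gene sox11b was at 292, 230.2 and 191 TPM early and 53.3, 27.9 and 30.0 TPM late and fell by 2.69, whereas sox21a rose by 3.15. Of 15 neural crest genes that accompany foxd3, 10 were tested, of which 3 rose and 2 fell. Mitfa, the melanocyte regulator, was listed at 0 in all early controls and was at 10.5, 19.2 and 19.2 TPM late, twist1a rose by 2.95, and tfap2c fell by 3.57. Of 15 oocyte and maternal genes, 14 were tested, of which 4 fell and 1 rose. The cyclin gene ccna1 was at 67.6, 97.2 and 59.6 TPM early and 5.57, 4.17 and 4.22 TPM late and fell by 3.72, and the germ plasm organizer buc fell by 2.14. Of 12 germ cell markers tested, dazl rose by 1.35 (adjusted p = 0.0308), tdrd7a fell by 0.92 (adjusted p = 0.0243) and 10 were not called. Of 14 neural markers 6 rose and 1 fell, beside 43.9% and 11.7% of all genes tested. Among these markers fabp7a was at 0.313, 0.266 and 0.550 TPM early and at 369, 179 and 178 TPM late.

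Genes with the most similar profile to 7 of the members were found by the root-mean-square difference of centred log2(TPM + 1) over the 20 libraries, among 10402 genes with a mean of at least 5 TPM. For pou5f3 they were nnr (0.82), tbx16 (0.88) and ccna1 (0.90), against a median of 3.503 over all genes. For nanog they were si:dkeyp-114g9.1 (0.56), cntd2 (0.56) and si:ch73-303b9.1 (0.69), against 2.201. Myca was closest to galnt1 (0.33), mef2aa (0.34) and cadm4 (0.36), against 1.71, and mycb to pik3c3 (0.48), mfsd11 (0.51) and pdia3 (0.53), against 1.39. Eomesa was closest to cdca7b (0.59), CABZ01074745.1 (0.68) and rrm1 (0.69), against 1.58. The nearest genes of sox19b were qrich1 (0.64), smurf1 (0.65) and nup153 (0.67), against 1.83, and those of foxd3 were taf15 (0.90), dld (0.96) and ldb1b (1.01), against 2.29. The libraries share stage and table, so these values describe the profiles only.

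Ordered by mean TPM, the levels of pou5f3 were highest in control-MO at 75% epiboly (295.6), then the KD (243), the cKO (149) and the control (145), and at 1 dpf the cKO (3.37), the control (2.54), control-MO (0.835) and the KD (0.513). Of these neighbours the cKO and control overlapped at both stages, as did control-MO and the KD at 1 dpf. For nanog the 4 early groups overlapped from neighbour to neighbour and the 4 late groups did not, in the order control (9.57), cKO (6.38), control-MO (3.32) and KD (0.965). For sox19a every neighbour overlapped the next, from 116 TPM in the KD at 75% epiboly to 18.2 TPM in the cKO at 1 dpf. Eomesa overlapped from neighbour to neighbour from 19.4 TPM in early controls down to 5.45 TPM in late ones, and the KD at 1 dpf (0.314) stood below. For foxd3 the late controls (0.0812) stood below all other groups. For sox19b the late groups, 15.7 to 23.4 TPM, overlapped one another, and for mycb the late groups were all at 10.97 to 17.97 TPM. For myca the KD at 1 dpf (4.81 TPM) stood below the other late groups, at 13.2 to 19.0 TPM, and above the early ones.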

How the data were processed

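RNA of fluorescence-sorted PGCs was amplified with a full-length mRNA kit and made into libraries by transposase insertion, per the labels' protocols. The deposited tables hold TPM, with 1 column per library and 32520 features in each of 4 tables, and every per-sample column was used. Listed in the submitters' processing notes, with no role given, are StringTie 2.2.1, STAR 2.7.10b and GRCz11 (danRer11). Of the features, 896 had no name and 38 were ribosomal or mitochondrial. TPM are shares of a library, so a large change in a few abundant genes moves all others. The depth, and with it the precision of low values, is unknown. The 4 amplicon libraries of DNA were not analysed here. Over the 190 pairs of libraries, at most 1 gene above 0 had an identical TPM.

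From the deposited values, log2(TPM + 1) was computed and genes with a mean of at least 1 TPM over a fit were kept. The test was limma's (3.58.1, in R 4.3.3), its prior variance following mean intensity, with Benjamini-Hochberg adjustment over all genes and a threshold of 0.05. All fold changes named log2 are on the log2(TPM + 1) scale, which understates changes of low genes. The stage tests used 1 fit per experiment, of 12 or 8 libraries across tables. That was allowed because the TPM of every library summed to between 999551 and 999932. The smad1 comparisons used 1 fit per table, and the comparison of control-MO with controls used a fit of all 20 libraries. The fits were also run on simulated data with independent noise, without pairs or differences in cell content. Changes were added to no gene of low mean level, so that run is no check on the low values. Python 3.11.15 and matplotlib 3.10.9 drew the figures.

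The 8 members and all lists were chosen with earlier results of these data known, and no count over a list is independent support. All members are named. From each other list and from the germ cell, neural and neural crest markers, the rule took up to 4 genes with the smallest p for the stage change in controls and up to 2 with the highest mean TPM, and for each member the 3 genes nearest in profile. For sox19a the nearest genes are not reported here. The targeted gene smad1 is named in addition.

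Libraries that share a number counted as paired where at least 3 pairs had deviations from the group means that correlated above 0.1. In the knockout experiment the correlations were 0.176, 0.196 and 0.417 at 75% epiboly and 0.265, 0.105 and 0.272 at 1 dpf. The morpholino experiment has 2 pairs per stage, fewer than the 3 required. In both experiments the pairs share only a number. Other settings tried were no filter, a minimum of 5 TPM, a pseudocount of 0.1, quantile normalization, median-ratio scaling, removal of ribosomal and mitochondrial features, no trend, the replicate block, a fit of only the groups compared, and leaving out each library. Leaving out the libraries that stand apart was added after seeing the data.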

Additional observations from a re-analysis of the deposited data

Results flagged for a closer look

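The stage change of 9 of 107 tested genes from the lists around the members differed between the control-MO and control groups in limma's test. Of the 8 members none did. Over all genes, 673 of 16816 were called in that test, 2.17% as higher and 1.83% as lower. The naming rule took 5 of the 9, and the other 4 are named after their values were seen, with differences of -2.51 for cdk9, -4.53 for gdf3, -5.08 for sox32 and -3.28 for ved. In the same test, 8 of 9 blood and 5 of 9 muscle markers were called as higher, beside 2.17% of all genes. The part of blood and muscle cells in these differences was not tested. The experiments differ in table, in morpholino injection and in germ cell marker sum (797 to 5248 TPM against 4278 to 22344 TPM), which cannot be told apart.

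The Mnt gene mntb, a rival of Myc for Max, was at 23.8, 27.97 and 29.96 TPM early and at 6.52, 4.001 and 2.85 TPM late in controls. In control-MO PGCs mntb was at 5.15 and 5.13 TPM early and at 19.8 and 17.6 TPM late. The stages were separate in both, in opposite directions, as 61.6% of all genes were separate in controls and 76.0% in control-MO. The difference of the changes was 4.10 (SE 0.70, limma adjusted p = 0.00302). In the KD mntb was at 14.0 and 5.68 TPM early and at 28.6 and 8.14 TPM late, which overlapped. In the cKO mntb was at 36.4, 21.4 and 23.4 TPM early and at 4.42, 4.76 and 5.68 TPM late.

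The maternal linker histone gene h1m was at 935, 736 and 344 TPM early and at 348, 327 and 326 TPM late in controls. In control-MO PGCs h1m was at 530.7 and 605 TPM early and at 30.6 and 20.4 TPM late, a difference of the changes of -3.56 (SE 0.70, limma adjusted p = 0.00834). For the cyclin gene ccna1, at 450.04 and 289.6 TPM early and 2.17 and 1.55 TPM late in control-MO, it was -3.27 (SE 0.90, adjusted p = 0.0478).

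The bromodomain gene brd2a was at 49.9 and 35.3 TPM early and at 25.8 and 32.1 TPM late in control-MO PGCs, against 117 to 245 TPM and 16.5 to 21.8 TPM in controls. The difference of the changes of brd2a was 2.42 (SE 0.65, limma adjusted p = 0.0420). The histone variant gene h2az2a was at 1069 and 1294 TPM early and at 937 and 638 TPM late in control-MO PGCs, against 773 to 1600 TPM and 2467 to 2981 TPM in controls, and its difference was -1.81 (SE 0.44, adjusted p = 0.0278).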

How the results depend on the processing

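Of the values for single members, 759 of 815 kept their direction and their side of the threshold under the processing alternatives, and 464 of 545 did so when 1 library was left out. The alternatives that leave out libraries with high skin or low germ cell markers were chosen after seeing the data. Without the 3 skin-rich libraries, members called for stage were 4 in controls (42.2% of genes) and 3 in the cKO (4917 genes, 31.0%), and the genes called were 0 for the cKO at 1 dpf, 6 for the cKO difference of stage changes and 329 for that of control-MO. Without both replicate 2 libraries of the morpholino experiment at 1 dpf, 1345 genes and 2 members were called for stage in control-MO and 1368 and 2 in the KD, and 112 genes in the KD and 182 in the control-MO difference of stage changes. For stage, a minimum of 5 TPM gave 2400 genes (24.5%) in control-MO, and no filter gave 1886 (6.75%) in the KD. A fit of only the groups compared gave 6735 genes (40.7%) in control-MO and 1322 (8.43%) with 3 members in the KD. In the KD at 1 dpf, a minimum of 5 TPM called 43 genes and no trend called 10. No filter gave 1 gene for the cKO difference of stage changes, and a pseudocount of 0.1 or a minimum of 5 TPM gave 1 for the KD. The control-MO difference had 1213 genes (7.21%) and 1 member (nanog, -2.86) after quantile normalization and 1028 genes (6.11%) with median-ratio scaling. The replicate block, with pairing by number, called 14 genes for the cKO at 1 dpf, 27 for the KD at 75% epiboly and 1 for the KD difference. For the KD at 1 dpf it called 866 genes (5.05%) with 2 members, eomesa (limma adjusted p = 3.4e-05) and myca (0.0477). It also brought sox19a in the cKO (adjusted p = 0.0391) and sox19b in control-MO (adjusted p = 0.0474) past the threshold for stage and changed no other member's call. Without any block these also passed with quantile normalization (0.0207 for sox19a, 0.0082 for sox19b), median-ratio scaling (0.0255 and 0.0071) and a fit of only the groups compared (0.0379 and 0.0154). In the morpholino experiment the same-numbered deviations correlated at 0.0777 at 75% epiboly and 0.601 at 1 dpf. Signs turned only for differences that had not passed. In the cKO at 75% epiboly mycb was -0.40 with a pseudocount of 0.1, and sox19a was -0.57 and mycb -0.44 without both replicate 3 libraries. In the KD at 1 dpf mycb was 0.24 (quantile) and 0.31 (median-ratio). For the cKO difference of stage changes, myca was 0.37 with a pseudocount of 0.1 and 0.019 with median-ratio scaling, mycb -0.0034 (quantile) and -0.0095 (median-ratio), sox19a 0.22 without both replicate 3 libraries and sox19b 0.98 without the skin-rich ones. For the KD difference, pou5f3 was -0.30 with a pseudocount of 0.1, foxd3 0.20 (quantile) and 0.075 (median-ratio), and pou5f3 -0.091, sox19b 0.14 and foxd3 0.14 without both replicate 2 libraries. For the control-MO difference mycb was 0.26 (quantile). Leaving out 1 library gave 1001 to 2130 genes and 2 to 3 members for stage in control-MO, 1406 to 2975 and 2 to 5 in the KD, 1 to 46 genes for the cKO and 0 to 41 for the KD at 1 dpf, and 0 to 3 and 127 to 677 for the cKO and control-MO differences. It also turned the sign of eomesa for stage in the cKO (-0.79 to 0.056). In the cKO at 75% epiboly the ranges were -0.55 to 0.46 for pou5f3, -0.070 to 0.74 for nanog, -0.28 to 0.82 for sox19a, -0.78 to 0.069 for eomesa, -1.002 to 1.21 for foxd3 and -0.40 to 0.97 for mycb, and at 1 dpf -1.41 to 0.41 for sox19a and -0.44 to 1.08 for sox19b. In the KD at 75% epiboly they were -2.02 to 1.19 for nanog, -0.78 to 1.35 for sox19a, -0.74 to 0.90 for eomesa, -0.84 to 1.75 for foxd3 and -0.099 to 0.85 for mycb, and at 1 dpf -0.29 to 0.64 for sox19b, -0.59 to 1.13 for foxd3 and -0.26 to 0.0019 for mycb. For the cKO difference they were -0.23 to 0.78 for pou5f3, -1.75 to 0.069 for sox19a, -1.05 to 0.46 for sox19b, -0.36 to 0.15 for myca and -0.69 to 0.67 for mycb. For the KD difference they were -0.24 to 0.25 for pou5f3, -2.33 to 0.89 for nanog, -0.88 to 0.045 for sox19b and -1.48 to 1.11 for foxd3, and for the control-MO difference -0.65 to 1.17 for sox19a and -0.67 to 0.28 for mycb. Leaving out a library of a group of 2 leaves 1, assumed to vary like the other groups. The cause of these changes was not tested. The unknown depth limits the low values of myca, foxd3, late pou5f3 and eomesa in the late KD.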

Other observations

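The oocyte and maternal gene list gave these counts of genes that fell between 75% epiboly and 1 dpf, with 14 tested in each group: 4 in controls, 3 in the cKO, 6 in control-MO and 10 in the KD. Of all genes tested, 11.7%, 10.3%, 3.58% and 4.28% fell in these groups. Their medians on the log2 scale were -0.29, 0.18, -1.73 and -3.32, beside 0.96, 1.06, 0.82 and 0.46 for all genes. Whether these medians differ between groups was not tested.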
